A study of Mus musculus with 18 samples.

Results

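The Tcf3 knockout OCK cultures were followed on 5 arrays out of the 18 of the series, 1 array each for days 11, 15, 19, 22 and 26 after reprogramming began. The 5 arrays were taken by their titles, and no wild-type array enters any comparison. OCK stands for the introduced factors Oct4, c-Myc and Klf4, without Sox2. All 5 cultures carry the labels Tcf3 ko and OCK, with no siRNA. The 2 OCK Tcf3 ko iPSC clones of the series, established lines of the same genotype and factors, are given beside some genes as the level of the finished state. The sources used here state neither the starting cell type, the allele and method of the knockout nor the age of the animals. Nor do the labels say whether the days come from a single culture sampled repeatedly or from separate cultures, so the p-values reflect only how far these arrays lie apart, which can be technical.

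Tcf3, now called Tcf7l1, binds DNA and beta-catenin and holds down pluripotency genes in embryonic stem cells, a repression that Wnt signalling relieves. During reprogramming a small share of fibroblast-like cells gives up its mesenchymal programme, divides faster, gains epithelial contacts and finally switches on its own pluripotency network, while other cells of the dish stay behind or take other routes. The course of a whole culture therefore mixes these populations. In such a bulk sample fewer cells of a type and less RNA per cell cannot be told apart.

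Signals are log2 RMA values, and where 5 values of a gene follow each other they are those of days 11, 15, 19, 22 and 26. The lowest value on every array was 5.64, the log2 of 50, which stands for any lower level, so a difference measured from the floor is a lower limit of the change. Between 12278 and 12499 of 17903 genes lay above the floor on an array, array medians lay between 5.88 and 5.93, and 13225 genes above the floor on at least 1 of the 5 days were tested. Eef1a1 and Rplp0, a translation factor and a ribosomal protein, stayed between 14.40 and 14.44 and between 14.01 and 14.17. Of genes that define the populations such cultures can hold, the fibroblast genes Col1a1 and Pdgfra had 13.98 and 12.46 on day 11, whereas the pluripotency genes Sox2 and Nanog were at the floor on days 11 and 15.

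Tcf7l1 itself was above the floor on all days, at 9.48, 9.37, 8.61, 8.10 and 8.44, and at 9.45 and 9.56 in the 2 clones. A second probe set of the gene had 8.87, 8.53, 7.86, 7.04 and 7.58. Both probe sets were highest on day 11 and lowest on day 22. The position of these probes against the deletion is unknown here, so the signal does not check the knockout. The difference of late minus early days was -1.15 ± 0.17 (SE of the fit, days 22 and 26 against 11 and 15, limma adjusted p = 0.0112).

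The first question was which genes changed steadily from day 11 to day 26. A straight line through the 5 days called 1 of 13225 genes (0.00756%) with limma at an adjusted p under 0.05. It was Dppa5a, an RNA-binding protein of pluripotent cells, with 5.95, 7.31, 9.27, 11.18 and 12.47. It was higher on each day than on the sampled day before, with a slope of 0.46 ± 0.023 log2 per day (SE over 5 arrays, adjusted p = 0.0137), and had 14.60 and 14.45 in the clones. The call was lost without day 11 (adjusted p = 0.439), day 15 (0.0628) or day 19 (0.114). No gene passed downward, and 3776 genes (28.6%) had an unadjusted p under 0.05, 1955 with a rising and 1821 with a falling slope. A curve in place of the line called 0 genes with limma, with 205 (1.55%) at an unadjusted p under 0.05.

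Other genes with a nearly even course, none of which passed that test after adjustment, came from mixed roles. Of upward courses, Bnip3, a mitophagy receptor, had 9.81, 10.38, 11.20, 11.61 and 12.27. The kinase gene Pim2 had 6.89, 7.33, 8.79, 9.56 and 10.26, and Zscan10, a transcription factor of pluripotent cells, 6.44, 6.89, 7.77, 8.58 and 8.82. All 3 were higher on every later day. Of downward courses, the peptidase gene Enpep had 8.28, 7.62, 6.65, 5.64 and 5.64, and Lce1b, of the cornified envelope of skin, 9.32, 8.36, 7.29, 5.66 and 5.64. Both reached the floor by the end, where the clones also lay. Most of the other downward courses with the lowest p belonged to antiviral genes (Zbp1, Ifit2, Oasl1, Trim30a, Rtp4 and Parp14), such as the nucleic acid sensor gene Zbp1 with 9.34, 9.01, 7.66, 7.34 and 6.57.

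The course came in steps. The arrays of days 11 and 15 correlated across the tested genes with r = 0.9897, those of days 15 and 19 with r = 0.9507, and those of days 22 and 26 with r = 0.9751 (genes are not independent replicates). Day 22 lay farther from day 11 (r = 0.8869) than day 26 did (r = 0.9226). From day 11 to 15 only 60 genes (0.454%) were at least 2-fold higher and 62 (0.469%) lower. From day 15 to 19 the numbers were 690 (5.22%) and 396 (2.99%), the largest count of gains of the 4 steps. From day 19 to 22, a gap of 3 days in place of 4, losses outnumbered gains, with 295 (2.23%) higher and 502 (3.80%) lower. From day 22 to 26 the counts were 286 (2.16%) higher and 141 (1.07%) lower. With 1 array a day these folds have no replicate check.

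**Figure D1:**
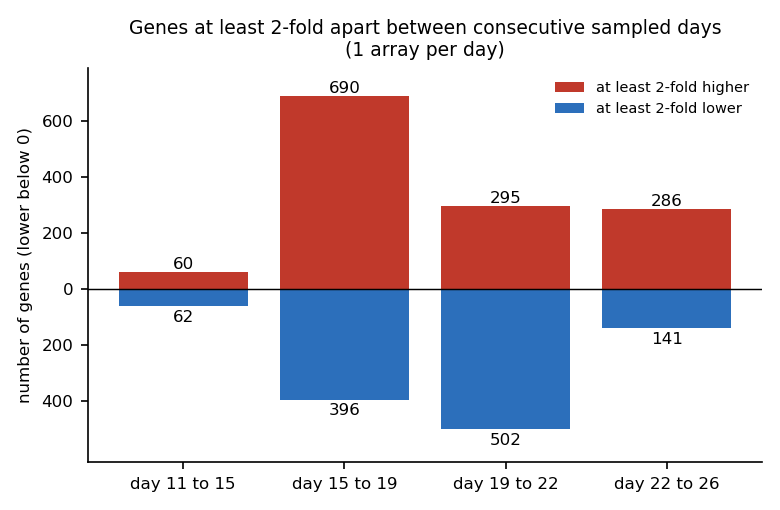
Number of genes at least 2-fold higher (red, above 0) or lower (blue, below 0) between consecutive sampled days of the Tcf3 knockout OCK cultures, out of 13225 tested genes and with 1 array per day. Gains were most frequent from day 15 to 19 (690) and losses from day 19 to 22 (502).

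Many genes far from day 11 on day 22 lay closer to it on day 26. They were chosen by the 1 array of day 22, so a return over time cannot be told apart from a deviation of that array or culture. Of 1348 genes (10.2% of those tested) at least 2-fold above day 11 on day 22, 765 (56.8%) still were on day 26, and their median difference from day 11 went from 1.45 to 1.11. Of 1549 genes (11.7%) at least 2-fold below day 11 on day 22, 640 (41.3%) still were, with medians of -1.41 and -0.90. Day 19 had 642 genes at least 2-fold above day 11 (4.85%), of which 552 (86.0%) still were on day 26, and 462 below (3.49%), of which 349 (75.5%) still were. Of the 3940 genes with a range of at least 2-fold, 1405 were highest and 1688 lowest on day 22.

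For the genes that ended at least 2-fold from day 11, the signal was interpolated between sampled days. The crossing day was the day on which it first reached the midpoint between its day 11 and day 26 levels. It was 17.7 (median of 965 gains, 7.30% of genes) and 17.5 (median of 685 losses, 5.18%). The crossing fell between days 15 and 19 for 724 of the gains and 502 of the losses. It places a change between sampled days, and the exact day within a gap comes from the interpolation.

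Because of these steps, the late days 22 and 26 were also set against the early days 11 and 15, with day 19 as a level of its own. The planned test was the straight line. This grouping was chosen after the same arrays had shown the steps, so its adjusted p-values are descriptive. Limma called 4598 of 13225 genes (34.8%), 2313 higher (17.5%) and 2285 lower (17.3%). "Rose" and "fell" below refer to this test. Its error comes from the distance between the 2 arrays of each pair, which is small for days 11 and 15: without day 11 it called 274 genes and without day 15 350, against 3920 without day 22 and 6168 without day 26. For the gene lists below, the counts without day 11 and without day 15 are therefore given in this order.

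**Figure D2:**
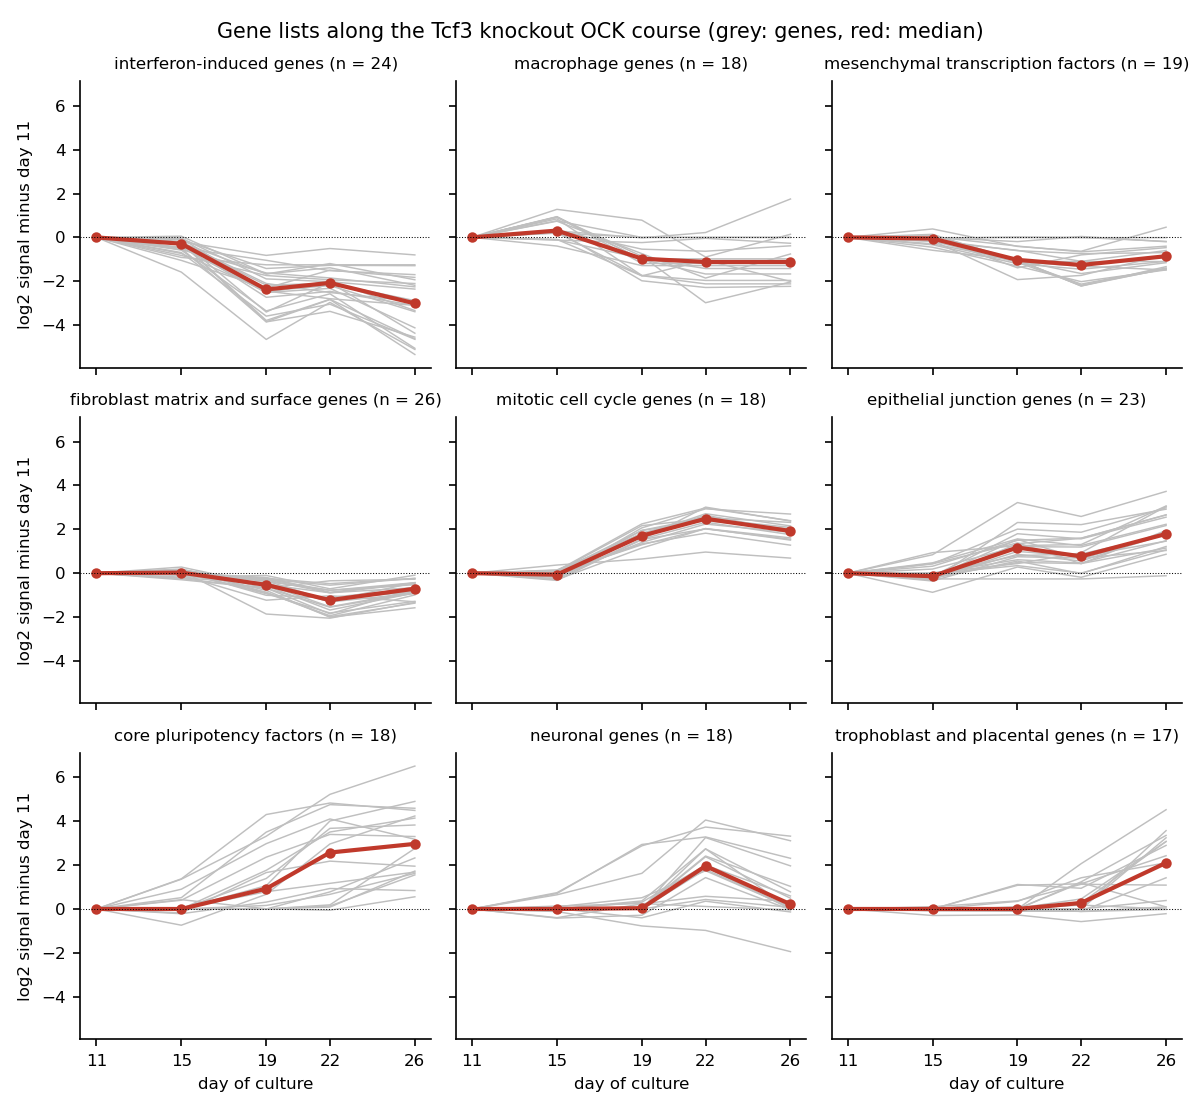
Difference of the log2 signal from day 11 (y axis) on each sampled day (x axis) for the tested genes of 9 lists, each gene a grey line and the list median in red. Interferon-induced genes drop between days 15 and 19, mitotic genes gain in the same step, neuronal genes peak on day 22, and placental genes gain mainly from day 22 to 26.

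On day 15 adipocyte genes were above and keratinocyte genes below day 11. Adipoq, the hormone adiponectin of fat cells, had 6.05, 11.17, 9.96, 9.72 and 9.40, highest on day 15 and above day 11 on all later days. Car3, a carbonic anhydrase abundant in fat and muscle, had 5.99, 10.48, 11.65, 9.63 and 10.11. Cidec, a lipid droplet protein, was above 7 on day 15 alone (5.64, 7.72, 6.28, 5.88 and 5.64). Of 14 adipocyte genes 5 were at least 2-fold higher on day 15 than on day 11 (with Cd36, a fatty acid carrier, and G0s2, an inhibitor of lipid breakdown), against 0.454% of all genes, and 13 of 14 were higher by any amount. From day 15 to 19 most of the list turned back, with 12 of 14 lower, 5 of them at least 2-fold (2.99% of all genes), and a median of -0.60. Fabp4, a fatty acid binding protein, was already at 11.88 on day 11 and lay between 12.63 and 12.85 afterwards. Since the change came between the early days, the late against early test called no gain in this list (0 without day 11 and 2 without day 15). It called 2 losses among the 14 genes (1 and 0), near the 17.3% of all genes. Plin2, a coat protein of lipid droplets, was 1 of them (-0.96 ± 0.19, adjusted p = 0.0192). Adipoq and Cd36 lay at the floor in both clones.

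Slc38a5, an amino acid transporter, began in the same step and went on, with 5.64, 8.70, 11.64, 12.42 and 11.97. Klk1, a kallikrein protease, had 7.73, 10.08, 12.04, 11.74 and 12.61. Neither of these gains was a feature of the clones, which had 5.78 and 6.80 for Slc38a5 and 7.67 and 7.20 for Klk1.

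Keratinocyte genes, many of the cornified envelope, were lower over the same days: 7 of 18 were at least 2-fold lower on day 15 than on day 11, against 0.469% of all genes. Sprr1b, an envelope precursor, had 10.22, 8.07, 7.56, 5.64 and 6.83, and the keratin gene Krt16 had 10.61, 9.20, 9.39, 7.06 and 8.67. A second loss came from day 19 to 22, with 12 of 18 at least 2-fold lower (3.80% of all genes), and 9 of 18 were at least 2-fold higher again on day 26 (2.16% of all genes). Krt14, a keratin of basal epidermis, showed this dip on day 22, with 9.29, 8.64, 8.82, 6.51 and 8.34. Late against early, 6 of 18 fell, against 17.3% of all genes, and none rose (3 and 4 lower without day 11 or 15). The late cornified envelope genes Lce1b (-3.18 ± 0.32, adjusted p = 0.00683) and Lce1c (-2.51 ± 0.28, adjusted p = 0.00720) were among them, and did not come back.

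Proliferation genes were higher together from day 19 on. Of 18 mitotic genes 17 were at least 2-fold higher on day 19 than on day 15 (5.22% of all genes), with a median difference of 1.79. Bub1, a kinase of the spindle checkpoint, had 7.72, 7.55, 9.79, 10.65 and 10.42. The centromere histone gene Cenpa had 8.16, 8.27, 10.41, 11.14 and 10.56. For both, the 2 early days lay within 0.2 of each other and below all later days. In the late against early test 17 of 18 rose (10 and 10), against 17.5% of all genes, Bub1 with 2.90 ± 0.16 (adjusted p = 0.00314). Foxm1, a transcription factor of the G2 phase, did not pass (0.64 ± 0.19, adjusted p = 0.0521). Both sizes depended on the probe set, another one having 0.52 for Bub1 and 1.22 for Foxm1.

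DNA replication genes showed the same course, 14 of 19 being at least 2-fold higher on day 19 than on day 15 (5.22% of all genes). Cdc6, which loads the replicative helicase, had 6.37, 6.44, 8.26, 9.40 and 8.53, and the helicase subunit genes Mcm5 and Mcm6 had 7.64, 7.49, 9.72, 10.37 and 9.65 and 10.08, 9.70, 10.98, 11.87 and 11.28. In the late against early test 17 of 19 rose (1 and 3), against 17.5% of all genes, with a median of 1.83. E2f1 (7.69, 7.66, 7.65, 7.65 and 7.43) and Ccne1 were the genes that did not pass. Every one of the 18 mitotic and 19 replication genes was lower on day 26 than on day 22, by medians of -0.53 and -0.68. The clones were above the cultures for most of them, Cdc6 at 10.79 and 10.96.

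Replication promoters are shown for a short motif that part of the list holds and most of its promoters do not. Promoters were taken from RefSeq (GRCm38.p6). The E2F core (TTTGGCGC or TTTCCCGC, either strand) was searched in the 250 bases before each gene's start and a short stretch after it. It was present in 7 of 15 replication promoters in the table (46.7%), in 0 of 15 mitotic promoters and in 3.29% of the promoters of 10615 tested genes. The last base printed lies just before the annotated start, each sequence runs 5′ to 3′ on the strand of the gene, and capitals mark the matches.
Cdc6 (chr11:98907901-98908150, plus strand): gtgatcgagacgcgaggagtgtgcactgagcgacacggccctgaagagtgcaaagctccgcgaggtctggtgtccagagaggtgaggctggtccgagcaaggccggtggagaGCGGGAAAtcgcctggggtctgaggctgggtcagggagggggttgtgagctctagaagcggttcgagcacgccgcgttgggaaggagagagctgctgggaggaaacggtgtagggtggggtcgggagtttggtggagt
Mcm5 (chr8:75109259-75109508, plus strand): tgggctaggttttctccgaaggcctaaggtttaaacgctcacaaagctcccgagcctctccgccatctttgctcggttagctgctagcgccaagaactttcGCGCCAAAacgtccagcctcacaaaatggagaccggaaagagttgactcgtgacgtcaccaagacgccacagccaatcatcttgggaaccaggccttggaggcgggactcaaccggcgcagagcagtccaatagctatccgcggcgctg
Mcm6 (chr1:128359706-128359955, minus strand): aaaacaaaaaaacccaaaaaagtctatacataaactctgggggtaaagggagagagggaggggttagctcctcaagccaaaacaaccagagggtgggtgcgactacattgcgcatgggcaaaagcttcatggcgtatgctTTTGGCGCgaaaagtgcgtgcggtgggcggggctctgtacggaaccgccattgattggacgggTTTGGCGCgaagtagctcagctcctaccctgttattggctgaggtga
The match began 138 bases before the start in Cdc6, 149 in Mcm5, and 110 and 47 in Mcm6. A match is a description of the letters and not evidence of a bound factor.

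Interferon-induced genes were lower after the same step. Of 24 genes 20 were at least 2-fold lower on day 19 than on day 15, against 2.99% of all genes, and all 24 were lower, with a median of -1.90. Ifit1, an RNA-binding antiviral protein, had 12.80, 12.30, 8.95, 9.97 and 7.46. Irf7, the transcription factor that amplifies the interferon response, had 10.83, 10.57, 6.97, 7.45 and 6.28, and the chemokine gene Cxcl10 had 10.75, 9.17, 6.10, 7.79 and 5.64. Each of the 3 was lower on every day from 19 on than on both early days. On day 22 the list was partly up again: 17 of 24 were higher than on day 19, 3 of them at least 2-fold (2.23% of all genes). On day 26, 23 of 24 were below day 22, 10 of them at least 2-fold (1.07% of all genes). In the late against early test 21 of 24 fell (5 and 8), against 17.3% of all genes, Irf7 with -3.83 ± 0.39 (adjusted p = 0.00689) and the sensor gene Ifih1 with -2.60 ± 0.19 (adjusted p = 0.00459). Mx1, Rsad2 and Bst2 did not pass. Ifit1, Ifit3, Rtp4 and Gbp3 lay at the floor in both clones.

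The promoters of 3 of these genes are shown for the interferon-stimulated response element core (GAAA, any pair of bases, GAAA, on either strand), which was found in 11 of 17 interferon list promoters (64.7%) and in 3.55% of the promoters of all tested genes. The search for these shares again included the short stretch after the start. Printed are the 250 bases before the start, 5′ to 3′ on the gene's strand, with matches in capitals (RefSeq, GRCm38.p6).
Ifit1 (chr19:34640639-34640888, plus strand): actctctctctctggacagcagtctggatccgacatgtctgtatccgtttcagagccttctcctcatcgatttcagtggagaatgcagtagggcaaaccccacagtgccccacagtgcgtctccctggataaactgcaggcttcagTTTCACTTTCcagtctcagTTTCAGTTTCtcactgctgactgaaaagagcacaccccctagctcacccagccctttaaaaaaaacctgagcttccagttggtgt
Ifit3 (chr19:34583279-34583528, plus strand): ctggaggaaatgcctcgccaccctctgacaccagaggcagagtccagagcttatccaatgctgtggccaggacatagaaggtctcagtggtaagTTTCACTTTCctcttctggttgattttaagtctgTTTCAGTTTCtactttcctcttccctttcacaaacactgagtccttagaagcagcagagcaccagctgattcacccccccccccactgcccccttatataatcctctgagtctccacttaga
Cxcl10 (chr5:92348890-92349139, minus strand): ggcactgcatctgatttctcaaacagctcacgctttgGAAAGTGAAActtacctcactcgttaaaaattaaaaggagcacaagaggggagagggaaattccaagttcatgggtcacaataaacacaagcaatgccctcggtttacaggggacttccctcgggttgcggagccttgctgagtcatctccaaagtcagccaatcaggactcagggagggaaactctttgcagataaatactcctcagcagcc
The matches began 104 and 85 bases before the start in Ifit1, 156 and 122 in Ifit3, and 213 in Cxcl10. The share was 2.49% among genes that rose and 5.60% among genes that fell. Also searched were the Tcf/Lef core (CTTTGAT or CTTTGAA) and the octamer (ATGCAAAT). The Tcf/Lef core was in 7.24% of promoters of all tested genes, 7.43% for genes that rose and 6.89% for genes that fell. It was in 0 of 8 promoters of naive factors known as Tcf3 targets and in 4 of 15 mitotic promoters (26.7%). For the octamer the shares were 1.71% of all, 1.86% of those that rose and 1.46% of those that fell.

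Macrophage genes moved with the interferon genes from day 15 to 19. Of 18 genes 10 were at least 2-fold lower on day 19 than on day 15 (2.99% of all genes), and all 18 were lower. The complement gene C1qb had 7.61, 8.45, 5.87, 5.64 and 5.64, and Tyrobp, a signalling adaptor of myeloid cells, had 7.31, 8.26, 6.30, 5.64 and 5.64. Lyz2, the lysozyme of macrophages, had 10.31, 11.22, 9.45, 7.33 and 8.28. All 3 were highest on day 15, when 14 of 18 genes lay above day 11. Not all members followed: Cd68, a lysosomal protein of macrophages, had 7.22, 7.52, 7.20, 7.45 and 8.98, and 3 of 18 genes were at least 2-fold higher on day 26 than on day 22 (2.16% of all genes). The number above the floor was 16, 18, 14, 8 and 8 on the 5 days, and the summed linear signal of the list was 4165, 6735, 2576, 1464 and 2205. The markers C1qa, C1qb, C1qc and Adgre1 were at the floor on days 22 and 26. The interferon list's sum over the same days was 49266, 38120, 8634, 11404 and 5760, so it was partly up on day 22 while the macrophage sum was at its lowest. The part of macrophages in the interferon result was not tested. Comparing late with early days, 13 of 18 macrophage genes fell (7 and 3), against 17.3% of all genes, and none rose. For C1qa the difference was -2.23 ± 0.16 (adjusted p = 0.00448).

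**Figure D3:**
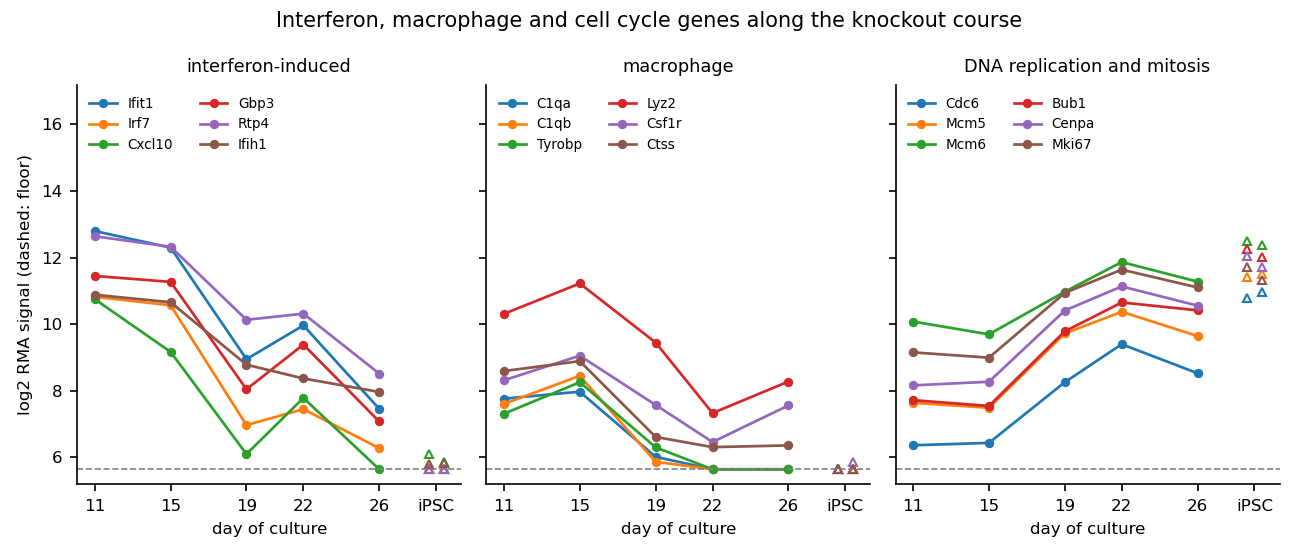
Log2 RMA signal of 6 interferon-induced, 6 macrophage and 6 cell cycle genes (y axis) by day of culture (x axis), 1 array per day, with the 2 OCK Tcf3 ko iPSC clones as open triangles and the floor of 5.64 as a dashed line. Interferon genes drop from day 15 to 19, are partly up on day 22 and lower on day 26, macrophage genes are highest on day 15, and cell cycle genes are highest on day 22.

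Mesenchymal transcription factors were also lower on day 19 than on day 15, 17 of 19 genes, 7 of them at least 2-fold (2.99% of all genes). Twist1 had 10.44, 10.43, 9.42, 8.22 and 9.02, and Zeb1, a repressor of E-cadherin, had 11.46, 11.40, 10.34, 10.14 and 9.97. Snai1, another repressor of E-cadherin, had 8.35, 8.20, 6.43, 6.62 and 7.57. Late against early, 14 of 19 fell (0 and 0) and none rose, against 17.3% of all genes. For Zeb1 the difference was -1.37 ± 0.14 (adjusted p = 0.00683). From day 22 to 26, 14 of 19 were higher again, by a median of 0.40 over the list.

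Matrix and surface genes of fibroblasts were lower in both middle steps, 25 of 26 below day 15 on day 19 and 24 of 26 below day 19 on day 22, with medians of -0.56 and -0.68. Col1a1, a chain of type I collagen, had 13.98, 14.08, 12.11, 11.92 and 12.64, and Col6a2, of type VI collagen, had 13.03, 13.19, 12.16, 11.05 and 11.67. Comparing late with early days, 20 of 26 fell (0 and 0), against 17.3% of all genes, Col5a1 with -1.86 ± 0.19 (adjusted p = 0.00683). The loss was partial: the list's median difference from day 11 was -1.23 on day 22 and -0.71 on day 26, and 25 of 26 were higher on day 26 than on day 22. Decorin (Dcn) had 14.03 on day 26, against 5.64 and 5.76 in the clones. The size of the loss depended on the probe set. Late minus early, Dcn had -0.60 in the one used and -1.79 in another, and Col3a1 -0.34 and -1.24. For Col1a1 (-1.75 and -1.44) and Vim (-0.74 and -0.48) the other probe set fell less. TGF-beta ligands and targets followed, with 6 of 16 lower and 1 higher late (0 and 0 in either direction). Of all genes 17.3% were lower and 17.5% higher late. All 16 of the list were higher on day 26 than on day 22.

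Positional and imprinted genes changed with the fibroblast genes. Of 23 Hox genes 11 fell late (0 and 2), against 17.3% of all genes, and Hoxa5 rose (0 and 0). Hoxc8, a gene of the trunk, had 10.31, 10.48, 10.02, 8.48 and 9.46 and its difference was -1.43 ± 0.33 (adjusted p = 0.0285). Of 14 imprinted genes 7 fell (0 and 0), against the same 17.3%, such as the growth factor gene Igf2 with 13.75, 14.05, 13.52, 12.39 and 13.04, and Peg3 rose (0.67 ± 0.17, adjusted p = 0.0359).

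Epithelial genes had 2 separate steps of gain, with most of them slightly lower on day 22. Of 23 genes 14 were at least 2-fold higher on day 19 than on day 15 (5.22% of all genes), 0 from day 19 to 22, when 17 of 23 were lower by a median of -0.15 over the list, and 14 again from day 22 to 26 (2.16% of all genes), when all 23 were higher. Cdh1, which encodes E-cadherin, had 8.91, 8.61, 11.23, 11.13 and 11.83, and Epcam, a surface adhesion protein, had 8.26, 9.10, 11.48, 10.84 and 11.99. Both had reached the level of the clones (11.70 and 11.51 for Cdh1, 12.02 and 12.03 for Epcam) on day 26. The tight junction gene Cldn6 came late, with 5.64, 5.65, 6.08, 6.58 and 8.69. In the late against early test 14 of 23 rose (1 and 1), against 17.5% of all genes, Cdh1 by 2.72 ± 0.27 (adjusted p = 0.00649). The simple keratin genes Krt8 and Krt19 were at 12.44 and 12.08 on day 26, far above the clones (7.62 and 9.02 for Krt8, 6.01 and 7.15 for Krt19).

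Glycolysis genes rose with them, 12 of 14 in the late against early test (6 and 5), against 17.5% of all genes. Aldoc, an aldolase, had 6.57, 6.38, 9.13, 9.80 and 9.99, and the glucose transporter gene Slc2a1 had 9.85, 9.26, 11.84, 12.01 and 12.82. Aldoc rose by 3.42 ± 0.15 (adjusted p = 0.00314). Of 19 respiratory chain genes only Cycs, cytochrome c, rose, against 17.5% of all genes. Its difference was 0.77 ± 0.15 (adjusted p = 0.0182), and it did not pass without day 11 or without day 15. Egln3, an oxygen-dependent prolyl hydroxylase, had 6.57, 5.73, 9.12, 10.05 and 10.95.

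The pluripotency genes did not appear together. By the first sampled day at least 2-fold above day 11, the order over the core list was Dppa5a and L1td1 on day 15, then Pou5f1, Sox2, Nanog, Sall4, Fbxo15, Gdf3 and Fgf4 on day 19, Utf1 and Tdgf1 on day 22, and Lin28a, Zfp42, Dppa2, Dppa3 and Dppa4 on day 26. The order also depends on the floor, since only 7 of the 18 core genes were above it on day 11, Dppa5a and L1td1 among them. A gene that starts below the floor must first climb an unseen distance. Of the 18 core genes 13 rose late (9 and 9), against 17.5% of all genes, and none fell.

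L1td1, an RNA-binding protein of pluripotent cells, had 7.03, 8.40, 11.34, 11.86 and 11.52, and was close to the clones (11.89 and 12.48) from day 19 on. Fbxo15, a known Oct4 and Sox2 target, had 5.64, 6.16, 9.15, 10.40 and 10.24. Nanog, a core transcription factor, had 5.64, 5.64, 7.41, 9.15 and 9.79. All 3 were above both early days from day 19 on. Sox2, the factor left out of the OCK set, had 5.64, 5.64, 6.71, 9.66 and 10.55. It first left the floor on day 19 and was higher again on days 22 and 26. Sox2 rose by 4.46 ± 0.30 (adjusted p = 0.00419), Nanog by 3.83 ± 0.23 (0.00327) and Sall4, another transcription factor of the network, by 3.75 ± 0.16 (0.00314). On day 26 Sox2 was still below the clones (12.50 and 12.33), as was Nanog (13.18 and 13.13).

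Tdgf1, the Nodal co-receptor Cripto, had 6.39, 5.65, 7.06, 9.36 and 10.63. Tfcp2l1, a transcription factor of the naive state, had 5.64, 5.64, 6.42, 7.56 and 8.79. Both gained on every step after day 15 and had not levelled off by day 26. The last group appeared in the last step: Zfp42 (Rex1), a marker of the naive state, had 5.64, 5.64, 5.64, 5.73 and 7.37 against 12.48 and 13.04 in the clones. Esrrb, a nuclear receptor and known target of Tcf3 repression, had 5.64, 5.64, 5.64, 5.70 and 7.37 against 11.62 and 11.42. The let-7 inhibitor gene Lin28a had 5.64, 5.64, 5.64, 5.83 and 8.41. None of these 3, high on 1 late day, passed the late against early test. Of 10 naive factors known as Tcf3 targets 5 rose (1 and 1), against 17.5% of all genes: Nanog, Klf4, Klf5, Tfcp2l1 and Nr0b1. Klf4 is an introduced factor, and its other probe set was lower late (-1.46, against 0.60 for the one used). Esrrb, Nr5a2 and Klf2 were first 2-fold above day 11 on day 26. Tbx3 was at least 2-fold below day 11 on day 22 and ended at 7.14, near its 7.25 of day 11. Tcl1 ended at 5.94 against 12.29 and 12.01 in the clones.

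**Figure D4:**
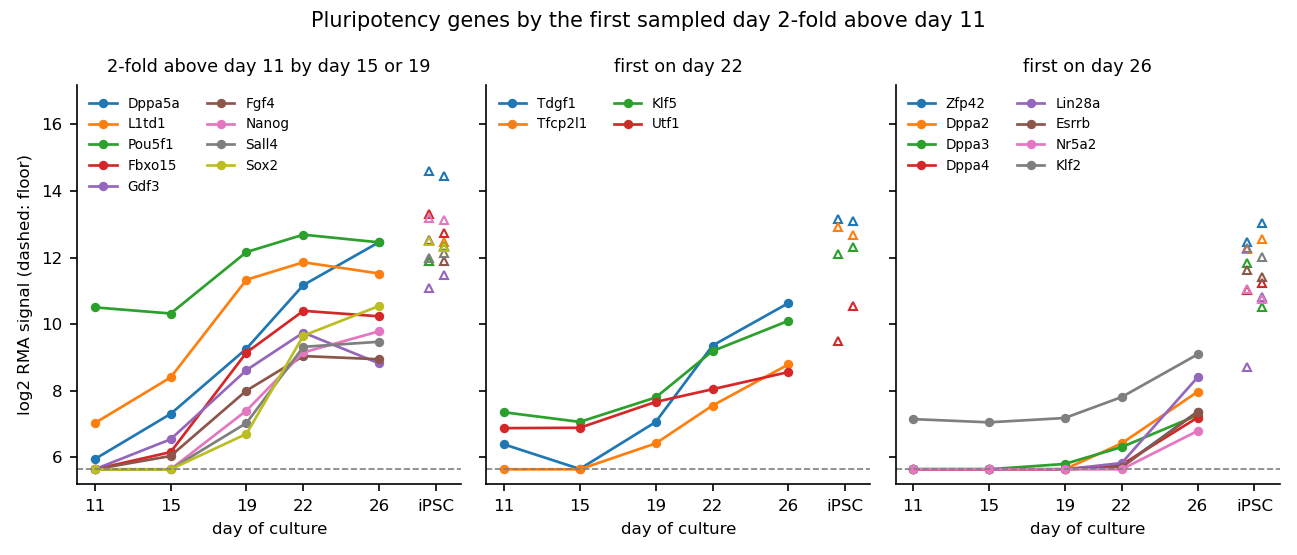
Log2 RMA signal (y axis) of pluripotency genes by day of culture (x axis), in panels by the first sampled day at least 2-fold above day 11, 1 array per day, with the 2 OCK Tcf3 ko iPSC clones as open triangles and the floor of 5.64 as a dashed line. Dppa5a and L1td1 start first, Sox2 and Nanog follow on day 19, and Zfp42, Esrrb and Lin28a leave the floor clearly on day 26 alone.

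Pou5f1, Klf4 and Myc encode the introduced factors, and the sources used here do not say if their probes also read the introduced copies. Pou5f1 had 10.51, 10.32, 12.17, 12.69 and 12.46 and Myc 9.40, 9.08, 10.95, 11.08 and 10.86. In the clones Pou5f1 had 11.90 and 12.35, whereas Myc had 5.64 and 8.09. The 2 probe sets of Klf4 disagreed, one having 11.60, 11.47, 12.07, 12.22 and 12.04 and the other 11.45, 11.39, 10.52, 9.62 and 10.30.

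Chromatin regulators of the pluripotent state moved in the middle of the course. Of 9 DNA methylation enzymes 6 rose (2 and 2), against 17.5% of all genes. Among them, Tet1, which oxidises 5-methylcytosine, had 5.64, 5.64, 6.85, 8.64 and 8.62. Another, the de novo methyltransferase gene Dnmt3b, had 6.87, 7.16, 9.05, 9.03 and 10.37. Of 15 Polycomb genes 9 rose (3 and 4), against the same 17.5%. Ezh2, the H3K27 methyltransferase, went from 8.74 and 8.57 to 11.43 and 10.81. Jarid2, which recruits it, had 7.28, 7.34, 8.51, 9.25 and 9.81. Germline genes rose in 7 of 11 cases (2 and 3), against 17.5% of all genes. The homeobox gene Rhox5 had 7.16, 8.57, 10.70, 11.92 and 11.93. Sohlh2, a germ cell transcription factor, had 6.79, 6.95, 6.85, 9.57 and 7.18, high on day 22 alone in the cultures but at 11.79 and 11.10 in the clones.

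Among the components of the Tcf and beta-catenin pathway little moved. Of 17 tested genes Tle4, a corepressor of Tcf proteins, rose (1.83 ± 0.21, adjusted p = 0.00774) and Tcf7l1, Tcf7l2 and Bcl9l fell, 4 calls in all against 34.8% of all genes (1 higher and 0 lower without day 11, 0 and 0 without day 15). Beta-catenin itself (Ctnnb1) lay between 13.36 and 13.42 on all 5 days, and Lef1 went from the floor to 5.86 on day 22 and 6.20 on day 26. Of 11 Wnt feedback and target genes Myc, an introduced factor, and Znrf3 rose (1 and 0), a share near the 17.5% of all genes. Axin2, the usual readout of the pathway, had 7.24, 7.11, 6.81, 6.74 and 6.91 and did not pass (adjusted p = 0.113). The stem cell receptor gene Lgr5 had 11.60, 12.11, 11.34, 9.79 and 11.09 and was at the floor in both clones.

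Neural genes appeared from day 19 on, some with their highest value on day 22 and others, such as Zic5, on day 26. Sox1, a transcription factor of early neural cells, had 5.64, 5.64, 8.72, 10.23 and 9.56, and Pax6, of neural progenitors and eye, had 5.64, 5.64, 7.38, 8.74 and 7.49. Both lay at or near the floor in the clones (5.64 and 6.17 for Sox1, 5.64 and 5.94 for Pax6). Fabp7, a fatty acid binding protein of radial glia, had 5.93, 5.64, 5.64, 10.16 and 7.78. Of 15 neural progenitor and epiblast genes 8 rose late (3 and 3), against 17.5% of all genes, Sox1 by 4.26 ± 0.24 (adjusted p = 0.00314) and Zic5 by 3.96 ± 0.16 (adjusted p = 0.00314).

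Neuronal genes followed on day 22: 11 of 18 were at least 2-fold higher than on day 19 (2.23% of all genes), and 10 were at least 2-fold lower again on day 26 (1.07% of all genes), when all 18 were below day 22. Elavl4, a neuronal RNA-binding protein, had 5.64, 5.64, 5.64, 8.39 and 5.64, and Dcx, a microtubule protein of migrating neurons, had 5.64, 5.64, 5.64, 7.56 and 5.64. Chgb, of neuroendocrine granules, had 8.28 on day 22 and was at the floor on the other 4 days. Late against early, 6 of 18 rose, against 17.5% of all genes, and Gap43 fell (1 and 2 higher, 0 and 0 lower). Among the gains was Nefl, a neurofilament, with 5.79, 6.44, 7.42, 9.85 and 8.90. Without day 26, 14 of 18 passed upward. Over all genes 99 were at least 2-fold higher on day 22 than on both day 11 and day 26 and highest there, and 133 were a dip of that kind.

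Placental genes came last. Of 17 trophoblast and placental genes 9 were at least 2-fold higher on day 26 than on day 22 (2.16% of all genes), and the number above the floor was 5, 7, 9, 13 and 16 on the 5 days. Prl7d1 and Prl7b1, prolactin family hormones of the placenta, were at the floor until day 22 and had 9.22 and 8.89 on day 26. Prl2a1, of the same family, had 7.71 on day 22 and 10.17 on day 26, and Tpbpa, a spongiotrophoblast marker, 5.92 and 8.72. All 4 lay at the floor in both clones. The regulators Elf5 and Tfap2c began before, with 5.64, 5.64, 6.72, 6.79 and 8.07 for Elf5 and 5.64, 5.64, 5.99, 7.07 and 7.75 for Tfap2c, whereas Cdx2 stayed between 5.86 and 6.07. Late against early 5 of 17 rose (0 and 0), against 17.5% of all genes, Prl2a1 by 3.30 ± 0.77 (adjusted p = 0.0284), and Prl7d1 and Prl7b1 did not pass, being high on 1 day.

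**Figure D5:**
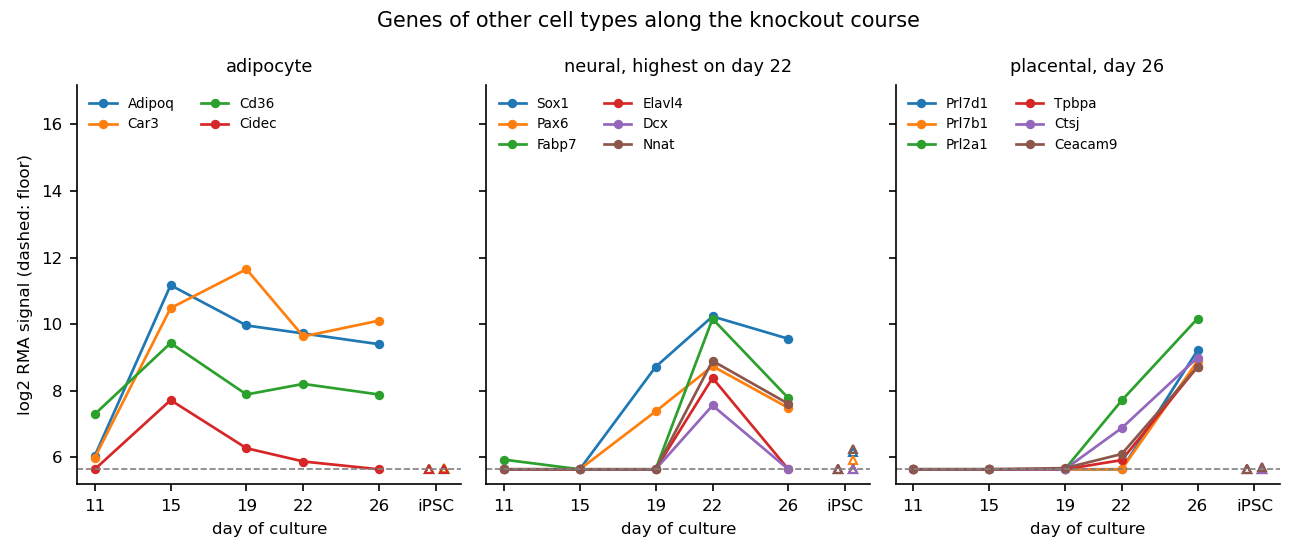
Log2 RMA signal (y axis) of adipocyte, neural and placental genes by day of culture (x axis), 1 array per day, with the 2 OCK Tcf3 ko iPSC clones as open triangles and the floor of 5.64 as a dashed line. Adipoq and Car3 gain by day 15, the neural genes peak on day 22, and the placental genes are highest on day 26, while the clones lie at or near the floor for all of them.

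Other germ layer lists moved little or with the fibroblast genes. Of 12 primitive endoderm genes 6 fell (0 and 0), against 17.3% of all genes. Apart from Gata6 (8.04, 8.04, 7.23, 6.98 and 6.66) and the adaptor gene Dab2 those were basement membrane and matrix genes such as Col4a1, Lamb1 and Sparc. Of 13 primitive streak and mesoderm genes Nodal and Eomes rose and Hand2 and Bmp4 fell (0 and 0 in either direction). Both shares were near the 17.5% and 17.3% of all genes. Of 9 endothelial genes Cldn5 and Esam rose (1 and 1), near the 17.5% of all genes. Cldn5, a tight junction gene of vessels, had 5.72, 5.83, 8.17, 8.09 and 7.96, while Pecam1 and Cdh5, which define endothelium, were at the floor on 4 of 5 days each. Of 10 muscle genes Mylpf and Des rose (1 and 1), also near that share, Mylpf with 5.64, 6.02, 7.21, 7.62 and 8.66 on the way to 11.31 and 12.04 in the clones.

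A few genes had their highest value on day 19. S100g, a calcium-binding protein, had 10.13 on that day and was at the floor on the other 4 days. Fos, an immediate early transcription factor, had 9.65, 9.46, 12.11, 10.79 and 10.09, and Egr1, of the same class, 10.54, 9.62, 11.77, 11.10 and 10.61. Of 16 immediate early and stress genes 4 were at least 2-fold higher on day 19 than on day 15 (5.22% of all genes). No array repeats that day. Late against early, 3 of these 16 genes rose and 2 fell (0 and 0 in either direction). Of 16 p53 and Ink4a barrier genes Pmaip1 rose and Cdkn2b, Cdkn2c, Fas and Phlda3 fell (0 and 0 in either direction). Both lists had 5 calls, a share near the 34.8% of all genes. Cdkn2a, the Ink4a/Arf gene, had 11.25, 11.78, 11.51, 11.04 and 11.31 against 6.90 and 6.64 in the clones. Among 11 housekeeping genes 4 rose and Gusb fell, against 17.5% and 17.3% of all genes (0 and 0 in either direction). Genes chosen as stable were thus called too, with a list median of 0.09, late minus early.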

How the data were processed

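Expression was measured on 18 Affymetrix mouse arrays, of which 5 are described. The authors deposited log2 values made with RMA, per the submitters' processing notes. The sources used here give no version or settings of it. The floor of 5.64 is seen in the values and named by no label. Gene names came from the platform annotation (31076 of 40508 probe sets with 1 symbol, 636 with several, 8796 unnamed here). Each of 17903 genes was read from its brightest probe set, by the mean over all 18 arrays.

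Tests used limma 3.58.1 in R 4.3.3, with Benjamini-Hochberg adjustment over 13225 genes and a threshold of 0.05. Days stand in for replicates. The prior variance came from the 11505 genes above the floor on all 5 arrays. Its SD was 0.214 for the line and 0.162 for the late against early contrast. Genes with floored arrays received no smaller variance than the prior of their test. On simulated data with 200 changed genes the line found 0.4% and 40.0% of changes of log2 1 and 2. The late against early contrast found 26.8% and 91.2% of them. Of the simulated calls, 5.61% were false for the line and 7.31% for the contrast. In the real data the contrast called 4598 genes, far more than the 200 changed in the simulation. The simulated shares therefore do not tell how many of those 4598 calls were false. The planned test was the line. The late against early contrast was made a result of its own after the data were seen.

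Members and the 31 gene lists were chosen with earlier results of these data known. Named genes were Tcf7l1 and 12 genes each way by the straight line. Those 12 were genes that passed, then those of lowest unadjusted p with at least a 2-fold change along the line. Also named were the 6 largest gains and losses of each step and the 5 largest peaks and dips of days 15, 19 and 22. Up to 5 members per list with the largest range, and list members needed as markers, were added. Other list members named here were picked with their values seen. Some listed genes were not analysed here. Alternatives were other priors, time scales, normalizations, probe set rules, filters, fold thresholds and leaving out each day. Precision is limited by the few arrays.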

Additional observations from a re-analysis of the deposited data

How the results depend on the processing

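The straight line called 0 genes with limma's plain prior over all genes and 0 on the log2 of day, against 1 in the test reported. With days 22 and 26 set against 11 and 15 the same data gave 4598 calls (2313 higher, 2285 lower). Leaving out each day in turn, the line called 0 to 350 genes (0 to 215 higher, 0 to 135 lower), 350 of them without day 22 and 22 without day 26. Dppa5a was lost with the plain prior (adjusted p = 0.0636). The late against early contrast called 274 to 6168 genes when each day was left out (194 to 3092 higher, 80 to 3076 lower). It called 3786 with the plain prior, 4050 with probe sets averaged per gene, 4677 after quantile normalization and 4637 after median centring. At a 3-fold threshold the 4 steps held 15, 247, 58 and 51 gains and 11, 70, 86 and 36 losses. Among genes above the floor on all 5 days, 36 were lower from day 11 to 15, 181 higher from day 19 to 22 and 70 lower from day 22 to 26, and with the mean of probe sets 93 were lower from day 22 to 26. The mean of probe sets lowered the median slope per day of core pluripotency genes to 0.157 (from 0.214), of naive factors to 0.0662 (0.109), of neural progenitor genes to 0.0481 (0.0919), of placental genes to 0.0813 (0.150) and of Polycomb genes to 0.0409 (0.0817). The cause was not tested for any of these. Which direction had more calls late against early turned with the scaling, from 2313 higher and 2285 lower to 2288 and 2389 after quantile normalization and 2176 and 2461 after median centring. The median slopes of the Tcf/Lef and the Wnt target lists, near 0, changed sign after centring. Of 103 named or listed genes called late against early that have another probe set above the floor, 11 had one of opposite sign. No paired analysis was possible because each day has 1 array and the labels give no replicate numbers. The floor limits what can be seen: 4678 genes were at it on all 5 days, and changes that start from it are lower limits.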
